A study of Mus musculus with 3 samples.

Results

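Neurog1, Neurog2, Atoh7, Neurod1, Neurod2, Neurod4, Neurod6 and Insm1 are 8 genes whose products start or carry forward neuron formation in the retina and brain. They were taken as a named list, out of 21646 protein-coding genes of the GENCODE M21 annotation of the mouse build mm10, and all 8 were found by symbol. The first 7 encode basic helix-loop-helix (bHLH) factors. Insm1 encodes a zinc finger factor and is no bHLH gene, so the list is one of neurogenic factors and not of a single protein family. Their chromatin was read by DNase-seq, which maps DNA that the nuclease DNase I can cut, in Müller cells, the radial glia of the retina. The cells were primary cells of B6NCrl mice aged 12 days after birth, males and females pooled, in 3 biological replicates of 1 group with no treatment, sort or control group named. The replicates share 1 donor label and the protocol document is titled for cultured cells, so the spread between them may in part be technical. For each gene and replicate the strongest peak within 1 kb of a start site was taken as its promoter peak. A peak farther than 1 kb from every protein-coding start site was called distal, and it was counted for whichever gene started nearest to it, up to 100 kb away, which does not show that it regulates that gene.

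Proneural bHLH factors bind the E-box, the sequence CANNTG, as dimers with widely expressed E proteins, and switch on a programme of neuronal differentiation. Neurog1, Neurog2 and Atoh7 act in dividing or newly postmitotic precursors, and the NEUROD factors mostly act after them in cells that are becoming neurons. In progenitors and in Müller glia, HES and HEY repressors downstream of Notch hold the proneural genes down, and ID proteins tie up the E proteins. Forced expression of proneural factors in Müller glia is a known route towards new neurons, which is why the state of these loci in the glia is of interest.

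The peak lists held 300269, 281185 and 184544 peaks in replicates 1, 2 and 3, and read depth is unknown. Each peak carries a deposited score from 1 to 150 whose unit is not stated, with medians of 53, 44 and 42, so scores of different replicates are not on a common scale and the rank within the replicate is added where it changes a comparison of replicates. A merged region with a peak in all 3 replicates is called a site, and a gene is called open where a site lies within 1 kb of its start. The term describes accessibility and not transcription. In a bulk library an opening in few cells and a weaker opening in all cells cannot be told apart. All 10 Müller genes listed were open, beside 67.1% of all genes. Among lists of other cells, 0 of 8 rod genes, 1 of 4 cone genes, 5 of 7 bipolar genes, 6 of 8 amacrine and horizontal cell genes and 6 of 7 ganglion cell genes were open. The bipolar (71.4%), amacrine and horizontal (75%) and ganglion cell (85.7%) shares were also above that of all genes, so openness does not tell the Müller list from these. The 8 microglia and macrophage genes all had a promoter peak in replicates 1 and 2, and none of them had one in replicate 3.

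The strongest site within 1 kb of the start of the 5 open members is printed here in the direction of transcription (mm10), because these are the openings on which the results turn. E-boxes are in capitals, and for Neurod4 only the part outside the transcript is shown.
Neurog2 promoter, chr3:127632656-127632825, plus strand: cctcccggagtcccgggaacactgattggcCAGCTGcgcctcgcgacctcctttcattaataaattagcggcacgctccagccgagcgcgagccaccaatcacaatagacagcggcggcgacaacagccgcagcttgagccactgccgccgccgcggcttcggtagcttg
Neurog1 promoter, chr13:56252336-56252525, minus strand: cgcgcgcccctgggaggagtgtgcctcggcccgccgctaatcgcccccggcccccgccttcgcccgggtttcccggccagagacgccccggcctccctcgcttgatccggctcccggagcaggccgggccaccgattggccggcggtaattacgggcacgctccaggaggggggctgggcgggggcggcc
Atoh7 promoter, chr10:63100216-63100405, plus strand: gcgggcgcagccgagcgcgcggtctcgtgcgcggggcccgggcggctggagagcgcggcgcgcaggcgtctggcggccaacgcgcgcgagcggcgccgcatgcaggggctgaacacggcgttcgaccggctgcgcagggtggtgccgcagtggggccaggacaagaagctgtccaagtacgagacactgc
Neurod4 promoter, chr10:130280241-130280365, minus strand: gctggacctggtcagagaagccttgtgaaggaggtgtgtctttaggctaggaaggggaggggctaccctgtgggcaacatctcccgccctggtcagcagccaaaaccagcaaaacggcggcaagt
Insm1 promoter, chr2:146221276-146221485, plus strand: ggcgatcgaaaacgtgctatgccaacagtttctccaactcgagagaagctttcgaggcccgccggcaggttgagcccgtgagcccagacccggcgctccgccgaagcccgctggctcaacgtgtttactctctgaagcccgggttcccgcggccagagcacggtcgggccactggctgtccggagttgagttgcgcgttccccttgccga
Among these 5 sequences only that of Neurog2 held an E-box, CAGCTG. The Atoh7 sequence lies in the coding exon of that gene, and the other 4 sequences lie upstream of their start. The whole Neurod4 site runs across the start, and its transcribed part is not among these sequences.

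Of the 8 members, 5 had an open promoter and 3 did not, beside 67.1% of all protein-coding genes that were open. The 5 open ones were the progenitor factors Neurog1, Neurog2 and Atoh7, together with Neurod4 and Insm1. The 3 others were Neurod1 and Neurod2, with a promoter peak in 1 replicate (6.79% of all genes had one in 1 or 2 of the 3), and Neurod6 with none. A promoter peak was found for 7, 5 and 5 members in replicates 1, 2 and 3, where 72.7%, 71.8% and 69.7% of all genes had one. The share of open members was thus close to that of genes in general, and their promoter peaks were low.

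**Figure D1:**
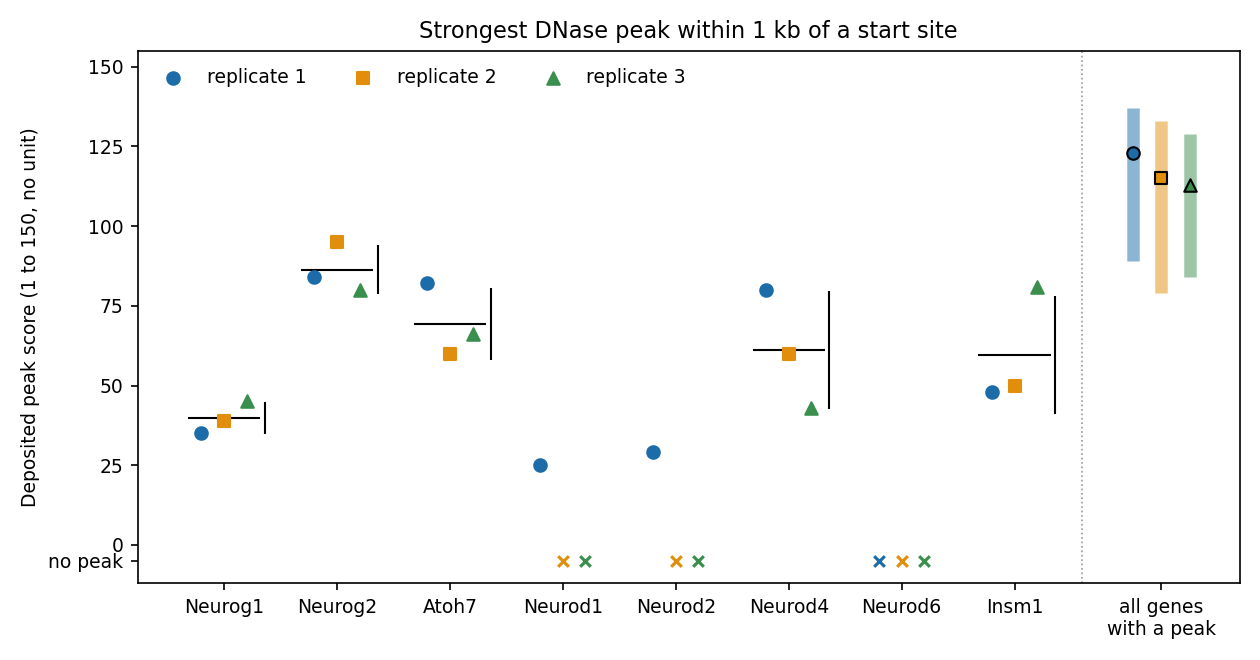
Deposited score of the strongest DNase peak within 1 kb of the start of each gene, by replicate, with crosses where no peak was found. Horizontal lines and bars give the mean and SD of the 3 replicates, and at the right bars give the interquartile range and symbols the median of all genes with a peak. The means of the 5 open members lie between 39.7 and 86.3, below the lower quartile of the mean over all such genes, 91.7.

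The mean promoter score of every open member lay below the lower quartile of that mean over genes, while in replicate 2 alone the Neurog2 peak, at 95, stood above that replicate's lower quartile of 79. The mean score over replicates was 86.3 ± 7.77 at Neurog2, 69.3 ± 11.4 at Atoh7, 61 ± 18.5 at Neurod4, 59.7 ± 18.5 at Insm1 and 39.7 ± 5.03 at Neurog1 (SD, n = 3). Since replicates are not on a common scale, such an SD also holds differences in scale between them. With percentiles in place of scores the 5 kept this order. Over the 14665 genes with a promoter peak in each replicate the median of the mean score was 119 and the lower quartile 91.7. By rank among those genes Neurog2 stood at percentile 22.1, Atoh7 at 14.1, Neurod4 at 10.8, Insm1 at 10.2 and Neurog1 at 3.20. The values of Neurog1 lay below those of Neurog2, Atoh7 and Insm1 in every replicate without overlap. The neighbours Neurog2 and Atoh7, Atoh7 and Neurod4, and Neurod4 and Insm1 overlapped in their ranges, as did Neurod4 and Neurog1. Within each replicate Neurog2 stood above Atoh7, at 84 against 82, 95 against 60 and 80 against 66 in replicates 1, 2 and 3. Atoh7 stood above Neurod4 in replicates 1 and 3 and equalled it in replicate 2. Neurod4 stood above Insm1 and Neurog1 in replicates 1 and 2 and below both in replicate 3. The place of Neurod4 against these 2 is thus not resolved by 3 replicates.

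Neurog2 encodes the proneural factor of retinal and cortical progenitors and lies on chromosome 3 from 127633135 to 127635631. Its promoter peak, centred 394 bp upstream of the start as a merged site, scored 84, 95 and 80 in replicates 1, 2 and 3. These values ranked at percentiles 76.3, 86.9 and 81.7 of all peaks of their replicates, so the opening was strong for a peak and still modest for a promoter. Weaker peaks past the start formed no site common to all replicates, with scores of 35 and 42 in replicate 1 and 56 in replicate 3.

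Neurog1, the close relative of Neurog2 that acts in cranial sensory neurons, lies on chromosome 13 from 56250478 to 56252163. Its 2 promoter sites were the faintest of the open members. The nearer one, centred 268 bp upstream, scored 35, 39 and 45 in replicates 1, 2 and 3, and the one centred 848 bp upstream scored 28, 28 and 30. Both were below the median peak of replicates 1 and 2. Neurog1 was not open when the same number of strongest peaks was taken from each replicate.

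Atoh7, the factor that makes progenitors competent to form ganglion cells, lies on chromosome 10 from 63099651 to 63101279. Its peak scored 82, 60 and 66 in replicates 1, 2 and 3, and it was centred 660 bp downstream of the start, inside the coding exon. Closer to the start there was a peak of 33 in replicate 1, centred 360 bp downstream, and one of 22 in replicate 3, centred 140 bp downstream, and none in replicate 2. With a window of 500 bp in place of 1 kb Atoh7 was therefore not open.

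Neurod4, which acts in amacrine and bipolar cell formation, lies on chromosome 10 from 130268152 to 130280240, and it was the 1 member whose site covered the start. The peak scored 80, 60 and 43 in replicates 1, 2 and 3, highest in replicate 1 and lowest in replicate 3. Its hotspot, the wider region called by the authors around peaks, reached the cap of 100 on the −log10 q scale in each replicate. The hotspots of Neurog2 and Atoh7 did so as well. That of Insm1 reached the cap in replicates 2 and 3, and that of Neurog1 in replicate 1.

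Insm1, which encodes a zinc finger repressor of neuronal and endocrine precursors, lies on chromosome 2 from 146221921 to 146225020 and carried 3 promoter sites, the most of the members. The site centred 540 bp upstream scored 48, 50 and 81 in replicates 1, 2 and 3. The site 260 bp downstream scored 37, 34 and 69, and the site 650 bp downstream in the coding exon scored 48, 36 and 46. By score replicate 3 stood above both others at the first 2 of these sites, and by rank also at the last, at percentiles 44.0, 38.9 and 55.6 in replicates 1, 2 and 3. The strongest promoter peak was highest in replicate 3 at 2 open members, Insm1 and Neurog1, compared with 16.5% of the genes with a peak in each replicate. By rank within the replicate it was highest there at the same 2 members, at percentiles 44.0, 57.1 and 82.2 for Insm1 and 24.9, 43.5 and 54.4 for Neurog1 in replicates 1, 2 and 3, compared with 41.4% of those genes. Replicate 3 was also the library without promoter peaks at the microglia and macrophage genes, whose part in this difference was not tested.

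The promoters of Neurod1, Neurod2 and Neurod6 showed little or no opening. Neurod1, a factor of photoreceptor and amacrine cell differentiation, had a peak of 25 in replicate 1, at percentile 8.5 of that library, and none in replicates 2 and 3. Neurod2, a factor of retinal and cortical neurons, had a peak of 29 in replicate 1, in its intron 757 bp past the start, and none in replicates 2 and 3. A promoter peak in replicate 1 only was found at 1.07% of genes. Neurod6, a factor of an amacrine subtype and of cortical neurons, had no promoter peak in any replicate, which holds for 25.5% of genes. It had no hotspot there either, and Neurod1 and Neurod2 had a hotspot in replicate 1 alone, with −log10 q of 2.36 and 2.1.

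The sequence just upstream of these 3 starts is printed for comparison, from RefSeq's promoter table (GRCm38.p6), in the direction of transcription and with E-boxes in capitals.
Neurod1 promoter, chr2:79456752-79456886, minus strand: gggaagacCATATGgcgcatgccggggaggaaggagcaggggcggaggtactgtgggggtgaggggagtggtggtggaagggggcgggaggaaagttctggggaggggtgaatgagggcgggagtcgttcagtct
Neurod2 promoter, chr11:98329649-98329895, minus strand: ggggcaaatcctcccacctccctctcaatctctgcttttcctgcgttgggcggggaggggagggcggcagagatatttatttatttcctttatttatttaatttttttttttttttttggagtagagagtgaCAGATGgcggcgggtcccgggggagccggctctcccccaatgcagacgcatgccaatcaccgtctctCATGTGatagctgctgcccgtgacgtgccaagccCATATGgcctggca
Neurod6 promoter, chr6:55681264-55681513, minus strand: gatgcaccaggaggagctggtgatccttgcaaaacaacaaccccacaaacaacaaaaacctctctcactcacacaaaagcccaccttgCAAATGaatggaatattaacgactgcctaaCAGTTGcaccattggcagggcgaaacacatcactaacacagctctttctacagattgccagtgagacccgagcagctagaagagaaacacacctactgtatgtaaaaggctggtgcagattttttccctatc
All 3 held E-boxes, CATATG at Neurod1, CAGATG with CATGTG and CATATG at Neurod2, and CAAATG with CAGTTG at Neurod6. The open members' sequences printed above are peak sites and not such windows, so the 2 sets cannot be compared in E-boxes. In the windows of 300 bp of the same table, Atoh7 had 3 E-boxes, Neurog1 had 1 and Neurog2 had 0. The 2 starts of Neurod4 had 1 and 0. Any E-box occurs in 68.6% of the 20061 promoter windows of 300 bp in that table, CAGATG in 14.3% and CATATG in 2.93%. The closed promoters did not share a CpG content. The window of 300 bp held 26 CpG at Neurod1, 16 at Neurod2 and 3 at Neurod6, beside 32 at Neurog1, 11 at Atoh7 and 10 at Neurog2 among the open members. Neurod4 has 2 starts in the table, with 7 and 4 CpG. The median window held 14 CpG.

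All 3 members without an open promoter had distal sites, and in number they exceeded most other genes. Neurod6 had 10 sites, Neurod1 had 9 and Neurod2 had 7, against 8 at Insm1, 4 at Neurog1, 4 at Neurog2, 1 at Atoh7 and none at Neurod4. Of all genes without an open promoter, 14.2% had at least 5 such sites. Together the members had 43 distal sites, with a median of 5.5 per gene compared with 2 over all genes, and 4 members had at least 5, a number that 29.4% of all genes reached. Within 50 kb only Neurod6 with 8 and Neurod2 with 7 had at least 5, beside 24.0% of all genes and 10.4% of those without an open promoter, while Neurod1 and Insm1 had 4 each. At least 1 distal site was found at 7 of 8 members and at 69.8% of all genes. The length of genome nearest to the members' starts had a median of 67444 bp against 43192 bp over all genes. Only at Atoh7, with 25609 bp, was this length below the median of all genes. Per 100 kb of that length the members had a median of 6.64 distal sites and all genes 4.36. By this density Neurod2 led with 9.92, followed by Neurod1 with 8.89, Insm1 with 7.87, Neurog1 with 7.05, Neurog2 with 6.22, Neurod6 with 5.69 and Atoh7 with 3.9, and Neurod4 had none.

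**Figure D2:**
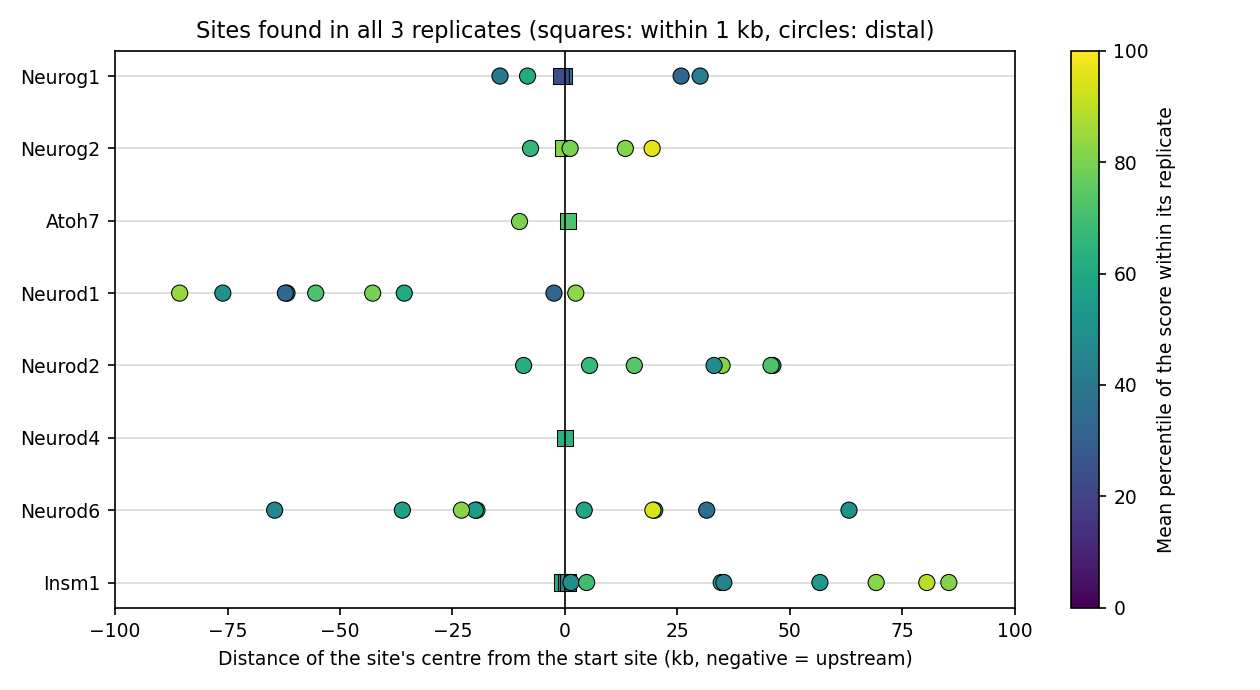
Position of the sites found in all 3 replicates, as distance of the centre from the start site in kb along the direction of transcription, coloured by the mean percentile of the score. Squares are promoter sites and circles distal sites. Neurod1, Neurod2 and Neurod6 carry circles alone, Neurod4 a square alone, and the 2 brightest circles lie about 20 kb downstream of Neurog2 and Neurod6.

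In the peak lists of the single replicates Neurod6 and Insm1 had the most distal peaks on average. Neurod6 had 21, 17 and 11 distal peaks in replicates 1, 2 and 3, Insm1 had 16, 17 and 15, and Neurod1 had 17, 14 and 9. Neurod2 had 13, 9 and 12, Neurog2 had 12, 6 and 8, and Neurog1 had 8, 10 and 8. Atoh7 had 2, 1 and 3 and Neurod4 had 1, 2 and 0. The first 6 genes overlapped with at least 1 other in their ranges, while Atoh7 and Neurod4 lay below them in every replicate. Over the 8 genes the lists held 90, 76 and 66 distal peaks, fewest in replicate 3, which had the shortest list.

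**Figure D3:**
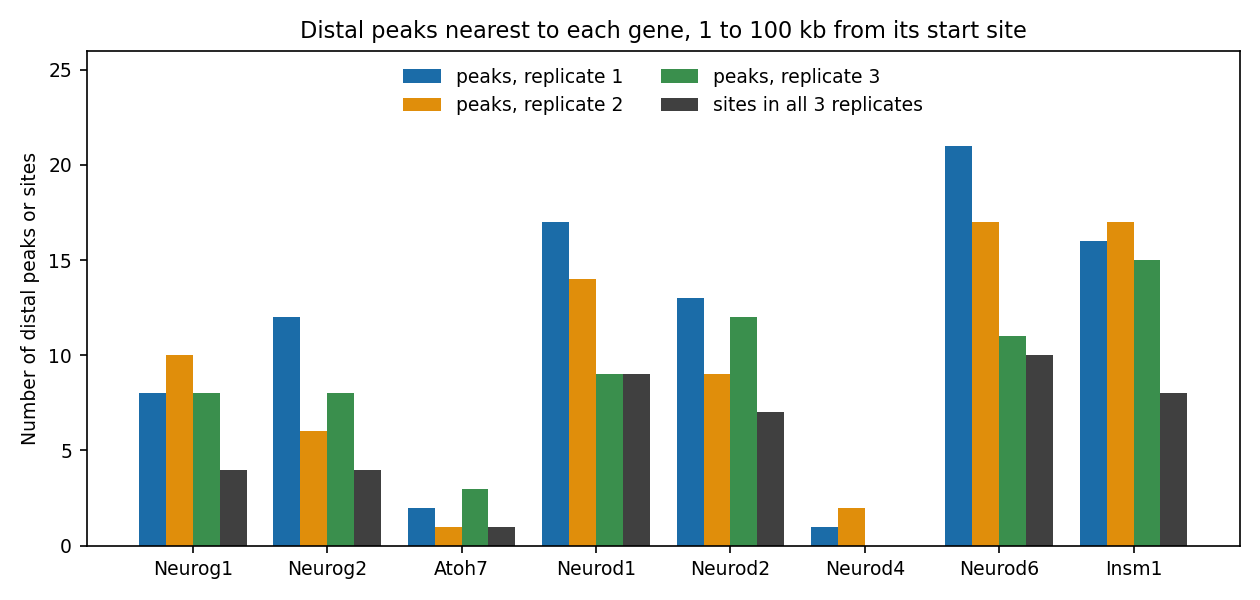
Number of distal peaks nearest to each gene in each replicate and number of distal sites found in all 3. Neurod6 has the most sites (10) and Neurod4 has none, with 1 peak in replicate 1 and 2 in replicate 2.

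Of the 43 distal sites, 2 stood above percentile 95 of the 86142 in the genome, by mean percentile over replicates. By definition about 5% of all distal sites stand there, so this count is near the share of all sites. The 2 sites are printed here with the strongest distal sites of Insm1 and Atoh7 (mm10, in the direction of the gene's transcription, E-boxes in capitals).
Neurog2 distal site, chr3:127652396-127652625, plus strand: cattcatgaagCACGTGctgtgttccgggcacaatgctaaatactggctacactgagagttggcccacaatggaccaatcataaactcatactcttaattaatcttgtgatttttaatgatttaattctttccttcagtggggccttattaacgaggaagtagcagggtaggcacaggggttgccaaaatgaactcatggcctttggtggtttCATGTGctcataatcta
Neurod6 distal site, chr6:55661636-55661785, minus strand: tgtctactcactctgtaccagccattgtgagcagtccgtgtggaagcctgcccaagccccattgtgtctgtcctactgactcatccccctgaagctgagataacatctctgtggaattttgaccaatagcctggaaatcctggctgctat
Insm1 distal site, chr2:146302276-146302445, plus strand: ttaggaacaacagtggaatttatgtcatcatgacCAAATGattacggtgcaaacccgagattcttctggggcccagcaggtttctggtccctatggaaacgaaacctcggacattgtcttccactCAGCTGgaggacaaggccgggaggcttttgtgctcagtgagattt
Atoh7 distal site, chr10:63089396-63089585, plus strand: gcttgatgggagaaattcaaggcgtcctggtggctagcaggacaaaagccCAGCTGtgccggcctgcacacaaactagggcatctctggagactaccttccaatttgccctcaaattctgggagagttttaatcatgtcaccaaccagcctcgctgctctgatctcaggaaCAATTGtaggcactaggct
The Neurog2 site held CACGTG and CATGTG, the Insm1 site CAAATG and CAGCTG, and the Atoh7 site CAGCTG and CAATTG. The Neurod6 site held no E-box, and it held 1 match to the AP-1 sequence TGANTCA and 2 to the SOX sequence ACAATG. The Neurog2 site also held 2 matches to ACAATG.

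The Neurog2 locus had the strongest site of all members. It lies between genes, centred 19376 bp downstream of the start, and scored 144, 138 and 99 in replicates 1, 2 and 3. These values stood at percentiles 99.4, 98.8 and 89.5 of their replicates, and the site exceeded the promoter peak of the same gene in each replicate. Its mean rank was at percentile 97.2 of all distal sites. The locus had 3 more distal sites, which scored 94, 76 and 85 at 13426 bp downstream, 90, 67 and 90 in the coding exon 1146 bp downstream, and 70, 53 and 64 at 7654 bp upstream. Replicate 3 was lowest at the strongest of these 4 sites and replicate 2 at the other 3.

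Neurod6, with no promoter peak, had a site centred 19552 bp downstream of its start that scored 133, 129 and 99 in replicates 1, 2 and 3. It ranked at percentile 95.4 of distal sites and lies between genes. The next in strength, 23008 bp upstream, scored 107, 99 and 60. Its 10 sites spread from 64528 bp upstream to 63142 bp downstream, in a region where the nearest coding starts belong to Itprid1, 155632 bp upstream, and Adcyap1r1, 221027 bp downstream. With non-coding starts included, 5 of the 10, with the site 23008 bp upstream among them, lie nearest to the long non-coding RNA Gm3279.

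At Neurod1 a strong site lay inside the gene and not at its start. This site, in the coding exon, centred 2410 bp downstream of the start, scored 96, 77 and 94 in replicates 1, 2 and 3, while the start itself was without a peak in replicates 2 and 3. It lies 271 bp from the start of a long non-coding RNA, Gm26755. A site 2440 bp upstream scored 28, 27 and 51, highest in replicate 3. The other 7 lay between 35720 and 85650 bp upstream, and the farthest of them, at 106, 92 and 77, was the strongest by mean percentile. The nearest coding start on that side belongs to Itprid2, 178601 bp away, and on the other side to Cerkl, 27860 bp away. Cerkl also has a processed transcript, annotated without a coding product, that starts 34 bp upstream of the Neurod1 start, and by that start 8 of the 9 sites lie nearest to Cerkl.

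Neurod2 had 6 distal sites downstream and 1 upstream. The strongest, centred 34927 bp downstream, scored 88, 85 and 83 in replicates 1, 2 and 3. Its ranks ran the other way, at percentiles 78.8, 82.7 and 83.2. The site 15417 bp downstream scored 88, 83 and 50. The pair at 46227 and 45807 bp scored 84, 71 and 23 and 94, 73 and 47, lowest in replicate 3. The upstream site, 9193 bp from the start and towards Ppp1r1b, scored 58, 47 and 70 and was highest in replicate 3.

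Insm1 had 8 distal sites, all downstream, of which 6 lay in an intron of Ralgapa2 and 1 in the Insm1 coding exon. The strongest, 80440 bp downstream, scored 116, 123 and 81 in replicates 1, 2 and 3, and its neighbour at 69180 bp scored 94, 91 and 75. The site at 85330 bp scored 104, 93 and 61. The strongest promoter peak was thus highest in replicate 3 and these 3 sites lowest there, where 81.6% of all distal sites had their lowest score. The intronic site at 56670 bp scored 58, 41 and 50 in replicates 1, 2 and 3 and was not lowest in replicate 3.

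The remaining loci were sparse. Atoh7 had 1 distal site, 10160 bp upstream between genes, with scores of 102, 97 and 58 in replicates 1, 2 and 3, above its own promoter peak in replicates 1 and 2 and below it in replicate 3. Neurog1 had 4 sites, of which the strongest, 8308 bp upstream, scored 66, 57 and 47, and the next by rank, 30052 bp downstream, scored 40, 35 and 46. Neurod4 had a promoter without a single distal site in 52237 bp of nearest genome.

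Across the 43 distal sites, 30 had their lowest score in replicate 3, compared with 81.6% of all distal sites, and 5 their highest, compared with 5.94%. By rank within the replicate 28 were lowest there, compared with 75.4%, and 12 highest, compared with 14.8%. Replicate 3 was the lowest at most distal sites on either scale, at the members and in the genome. By annotation at the centre, 34 of the 43 lay between genes, 6 in introns and 3 in coding exons. With the promoter sites included, 5 of 51 member sites (9.80%) lay in a coding exon of the gene itself, with 1 each at Neurog2, Atoh7 and Neurod1 and 2 at Insm1, against 2.43% of the 111118 sites given to any gene.

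Short motifs were looked for in the central 150 bp of each distal site, counting matches on either strand. An E-box of any kind was found in 29 of 43 (67.4%), compared with 59.45% of all distal sites. CAGCTG was found in 9 (20.9%, against 13.9%), CAGATG in 8 (18.6%, against 14.3%), CACGTG in 1 (2.33%, against 2.34%) and CATATG in none (0%, against 1.72%). The SOX sequence ACAATG was found in 10 (23.3%, against 11.3%) and the other SOX sequence, ACAAAG, in 3 (6.98%, against 16.6%). The AP-1 sequence TGANTCA was found in 6 (14%, against 20.6%) and the TEAD sequence CATTCC in 5 (11.6%, against 19.0%). The N-box CACNAG, which HES repressors can bind, was found in 18 (41.9%, against 33.5%), the NFI sequence TTGGC in 18 (41.9%, against 38.4%) and the RBPJ core TGGGAA in 6 (14%, against 17.1%). The homeobox sequence TAATTA, the OTX and CRX sequence TAATCC and the left part of the REST site, TCAGCACC, were found in 3, 1 and 2 sites (6.98%, 2.33% and 4.65%, against 5.83%, 3.86% and 1.14%). The 4 specific E-boxes are also counted under CANNTG. These are descriptions over few sites, and a match is not a bound site.

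In the 8 promoter sites E-boxes were found in 2 (25%, against 39.7% of all promoter sites), both of them CAGCTG (25%, against 9.72%). TTGGC was found in 5 (62.5%, against 32.8%) and CACNAG in 3 (37.5%, against 24.4%). TGGGAA and TGANTCA were found in none, against 12.2% and 5.69%. The promoter sites were rich in G and C, with a median of 71% against 64% of all promoter sites, and the distal sites had 52% against 50%.

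By the mean over replicates, the open members had lower promoter peaks than the genes of their partners and repressors. All 3 E protein genes were open, with mean scores of 142 ± 7.37 at Tcf3, 134 ± 3.61 at Tcf4 and 122 ± 7.10 at Tcf12 (SD, n = 3). All 10 repressor genes were open, and the median of the mean scores was 61 over the 5 open members and 135 over these 10. Id4 and Hey2, an ID protein and a Notch effector, were the highest at 143 ± 1.73 and 140 ± 0.577, and Hes5 and Heyl the lowest at 90 ± 9.17 and 90.3 ± 11.1 (SD, n = 3). The mean of each of the 10 stood above that of Neurog2, the strongest member. In replicate 2 alone Neurog2, at 95, stood above Hes5 and Heyl, both at 80. The members had a median of 5.5 distal sites and 6.64 per 100 kb, and the repressor genes 11 and 13.4. These lists were compared by description, without a test.

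**Figure D4:**
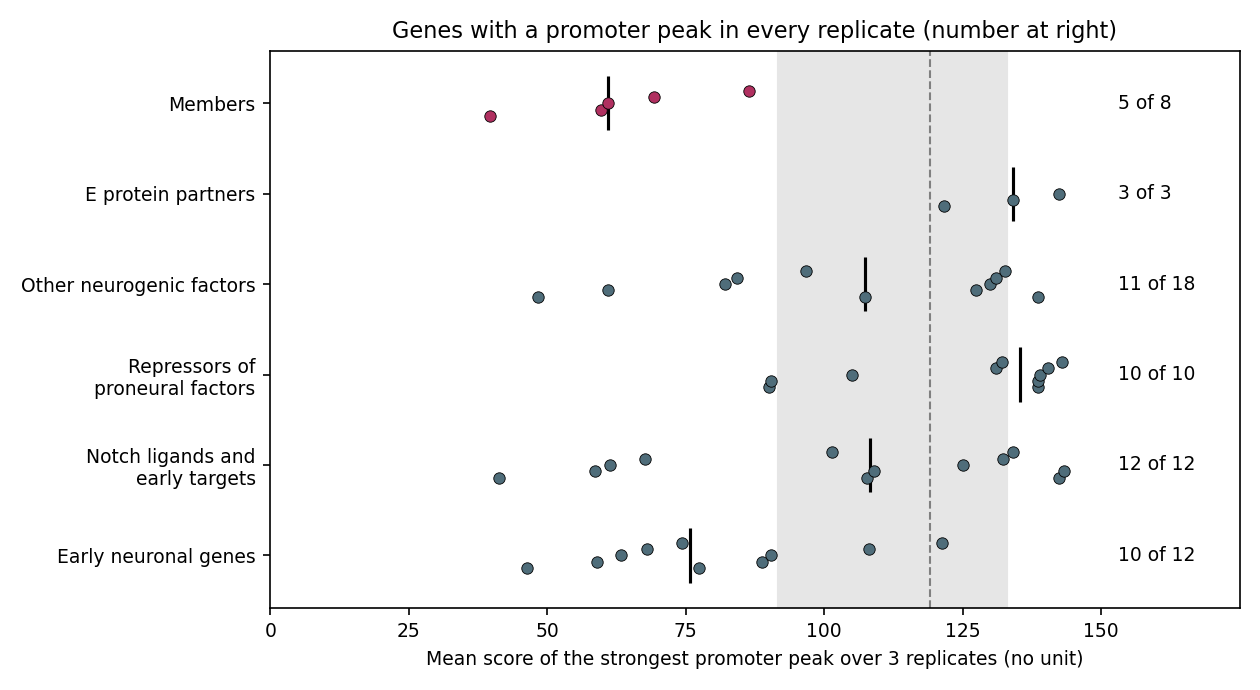
Mean score of the strongest promoter peak over 3 replicates for each gene with a peak in every replicate, by list, with a black bar at the list's median and, at the right, the number of such genes. The shaded band is the interquartile range and the dashed line the median (119) of all genes. All 5 members lie left of the band, and 8 of the 10 repressors lie in it or to its right.

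Notch ligands and early targets of proneural factors were all open, 12 of 12, with a median mean score of 108. The highest were Btg2, an antiproliferative gene of differentiating progenitors, at 143 ± 2.52, and Cbfa2t2, a corepressor, at 142 ± 6.43. The lowest were Jag2 and Dll4, both Notch ligands, at 41.3 ± 13.1 and 58.7 ± 5.51 (SD, n = 3). Open promoters were found at 5 of the 8 members (62.5%) and at 11 of 18 other neurogenic factors (61.1%), whose median mean score was 107. Sox4 and Sox11, SOX factors of early neurons, led with 139 ± 2.31 and 133 ± 0.577, and Myt1l and Atoh1 were lowest among the open ones with 48.3 ± 16.6 and 61 ± 20.3 (SD, n = 3). Ptf1a, Bhlhe23, Nhlh1 and Nhlh2, all bHLH genes, had no promoter peak in any replicate. Neurog3, the third neurogenin, had a peak of 27 in replicate 1 only. Olig2 had 29 and 49 and Myt1 had 24 and 19 in replicates 2 and 3, with none in replicate 1.

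Genes of young neurons were open in 9 of 12 cases, with a median mean score of 75.8 over the 10 that had a promoter peak in every replicate. Syt1, a synaptic vesicle gene, and Tubb3, a neuronal tubulin, were highest among the open ones at 121 ± 6.66 and 108 ± 12.1, and Rbfox3 and Gap43 lowest at 59 ± 19.3 and 63.3 ± 7.10 (SD, n = 3). Dcx, a microtubule protein of migrating neurons, had no promoter peak, Elavl3 scored 37 in replicate 1 and 32 in replicate 3 with no peak in replicate 2, and the peaks of Nefl in the 3 replicates did not form a common site. The open amacrine and horizontal cell genes had a median mean score of 83.7 and the open ganglion cell genes one of 60, while no rod gene had a promoter peak. The part of other retinal cells in the members' values was not tested.

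For each open member the gene most like it was sought over 6 values, the strongest promoter score and the number of distal peaks in each of 3 replicates, as log2 of the value plus 1. The smallest distance was that of Insm1 to Lmo3, 0.13, whose promoter scored 48, 51 and 76 with 16, 16 and 15 distal peaks in replicates 1, 2 and 3. Neurod4 was nearest to Rec8 at 0.19, Neurog1 to Prrxl1 at 0.41, Neurog2 to Armcx2 at 0.42 and Atoh7 to Krtap16-1 at 0.47. By score, Lmo3 and Insm1 were both highest in replicate 3 at the promoter, and Rec8, at 86, 64 and 39, and Neurod4 both highest in replicate 1. The genes were chosen on these same scores, so a shared order of replicates follows from the choice and is no separate result.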

How the data were processed

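DNase-seq peaks and hotspots of 3 replicates of mouse Müller cells were analysed as the authors deposited them, on build mm10. Per the deposited sample descriptions, each list was called on the alignments of its own library, so replicates were not pooled. An aligner or peak caller is not given in the sources used here. The deposited peak value is a score from 1 to 150 with no stated unit. The deposited hotspot value is a −log10 q with a cap of 100. With depth unknown, no interval or detection limit is given. Repeated positions were removed (21, 20 and 23 peaks). Peaks were merged at an overlap of at least 1 bp, and set against protein-coding start sites of GENCODE M21 on autosomes and X with pandas 2.3.3 and pysam 0.24.0. Percentiles rank a score within its replicate, tied values by their mean rank. The interval steps were tested on simulated data.

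There is 1 group, so there is no contrast and no test: members are given beside all genes as a description. Members and gene lists were chosen with earlier results of these data known. Named genes of a list are those without a promoter peak, those with one in 1 or 2 replicates, and the 2 highest and 2 lowest open ones. For each member the 2 strongest distal sites are given, with others chosen after their values were seen. Promoter windows come from RefSeq's table, which matched 7 of 8 members. Alternatives are a window of 500 or 2500 bp, the peaks at or above the median score, an overlap of 75 bp, equal peak numbers, hotspots, limits of 50 and 200 kb, start sites of all transcripts, and leaving out each replicate.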

Additional observations from a re-analysis of the deposited data

How the results depend on the processing

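The count of 5 open members was 5 without replicate 1, 2 or 3, with hotspots and with an overlap of 75 bp. It was 4 with a window of 500 bp (without Atoh7), 6 with 2500 bp (Neurod1 added through its coding exon), 4 with the same number of peaks (without Neurog1) and 3 with peaks at or above the median score (Neurog2, Atoh7 and Neurod4). The 43 distal sites of the members ranged from 46 to 64 when a replicate was left out. They numbered 23 with peaks at or above the median score and 16 when all annotated transcript starts were used, which left Neurod1 and Atoh7 with none. At Neurod1 8 of 9 sites then went to a processed transcript of the coding gene Cerkl that starts 34 bp from Neurod1. The strongest distal sites of Neurod2, Insm1 and Atoh7 then went to Gm20644, Gm14117 and Gm38063, none of which is a protein-coding gene. Without replicate 3 Insm1 had 14 distal sites in place of 8, Neurog1 7 in place of 4 and Neurod4 1 in place of none, and without replicate 2 Atoh7 had 2 in place of 1. With a limit of 50 kb Neurod1 had 4 in place of 9 and Insm1 4 in place of 8, so that 2 members in place of 4 had at least 5. With the same number of peaks Neurog1 had 2 in place of 4. The Neurog2 and Neurod6 sites near 20 kb downstream were nearest to their gene with all start sites as well. Among marker lists, open rod genes numbered 3 with a window of 2500 bp, open bipolar genes 3 with peaks at or above the median score, and open microglia and macrophage genes 1 with 2500 bp, 1 with hotspots and between 0 and 8 when a replicate was left out, 8 of them without replicate 3. With a replicate left out, a site needs a peak in the 2 others alone, which is a looser rule. The 8 microglia and macrophage genes had promoter peaks in replicates 1 and 2 and none in 3. Under the same rule their count was 0 without replicate 1 and 0 without replicate 2. Their count without replicate 3 thus follows from the peaks missing in that replicate. The cause of that absence and of the other shifts was not tested. Every motif share with the whole site in place of 150 bp lay within the exact 95% binomial interval of the first. The whole site contains the 150 bp, so no share could fall, and the interval over 43 sites is wide. Any E-box rose from 67.4% to 79.1% and the RBPJ core from 14% to 23.3%. Shares of all distal sites were not taken over whole sites, so the comparison with them was not repeated. No paired analysis was possible because the samples form 1 group.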
